A study of Mus musculus with 6 samples.

Results

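Cytosolic ribosomal proteins build the small (40S) and large (60S) subunits of the ribosome, with nearly every protein present as a single copy in each particle. Their mRNAs are among the most abundant of a cell. Most of them begin with a run of pyrimidines at the cap, the 5′ terminal oligopyrimidine (TOP) motif, through which the kinase mTOR and the RNA-binding protein LARP1 govern their translation. In liver they supply the ribosomes that make plasma proteins, and ribosome output is raised in growing liver tissue.

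The genes described here are the protein-coding mouse genes whose symbol is Rpl, Rps or Rplp followed by a number, without the S6 kinases (Rps6k) and without pseudogene symbols (-ps), that had at least 10 counts in every library. There were 82 such genes among the 54446 genes of the deposited table, 49 of the 60S subunit (Rpl and Rplp) and 33 of the 40S subunit (Rps). The symbol pattern held for 85 genes, and 3 fell below the minimum. Rpl10l and Rpl39l, known from testis, had 0 counts in all libraries, and Rpl3l, known from muscle, had 16 counts in week 2 replicate 2, 4 in week 7 replicate 1 and 0 in the other 4. The pattern also takes in Rps19bp1, whose product binds the protein of Rps19 and is no part of the ribosome. By its symbol Rps19bp1 is counted among the 33 in all 40S counts, sums and ratios below. The pattern misses a few others, such as Rpsa, Rack1 and Fau, which are given with the related genes.

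Poly-A RNA of mouse liver cells was sequenced at weeks 0, 2 and 7 of a treatment that the series title gives as MET/CAT and SB transposase, with 2 libraries per week and 6 in all. The labels do not expand CAT and do not say how the agents were delivered, which promoter drove them or in which cells. Ages are not given, and week 0 replicate 1 carries the strain label FVB/N mixed with C57BL/6. In the other labels the number after C57BL/ is 8, 10, 12, 14 or 16, so the background is unsure. No untreated animals at weeks 2 or 7 are among the groups, so treatment and the passing of time cannot be told apart. Whether the libraries of a week came from separate animals is not stated, and p-values measure the spread between these libraries only.

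The libraries held 49353453 to 58434358 counts, and the 82 genes took 1.72% to 1.96% of them. The female-specific RNA Xist had 13236 and 12804 counts at week 2, against 0 to 15 in the other 4 libraries, while the Y-linked gene Ddx3y had 0 counts in both week 2 libraries and 1897 to 2303 in the others. Comparisons with week 2 therefore differ in sex as well as in time, and these cannot be told apart. Albumin (Alb) took 9.65% and 10.1% of the counts at week 2 and 5.39% to 6.36% at weeks 0 and 7. The major urinary protein (Mup) genes took 2.83% and 2.94% at week 2 and 10.1% to 11.5% at weeks 0 and 7. All 8 hepatocyte markers were measured, with summed levels of 82400 to 119600 CPM (counts relative to library size), so the libraries held abundant hepatocyte RNA.

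RefSeq windows around the annotated start, on build GRCm38.p6, could be matched for 62 of the 82 genes. Where a gene had several annotated starts, the start with the longest pyrimidine run was kept. Stretches of 30 bases holding the longest pyrimidine run found between 25 bases before and 50 bases after that start are printed for a few members, 5′ to 3′ on the gene's strand, with the run in capitals. The first 4 are members called lower at week 7, shown as examples of the run.
Rpl7a (chr2:26910785-26910814, plus strand): ccccacaaTTCCCTCTTCTTTCTTTCTCCa
Rps23 (chr13:90923142-90923171, plus strand): tgggtccttcctgcaCCTCCTCTCTCTTTC
Rpl12 (chr2:32961732-32961761, plus strand): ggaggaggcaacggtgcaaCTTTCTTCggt
Rpl11 (chr4:136053359-136053388, minus strand): gccggaagTCTCCCTCTCTCTTCCTgttct
The next pair are the paralogues Rps27 and Rps27l, whose values at week 2 differ.
Rps27 (chr3:90213629-90213658, minus strand): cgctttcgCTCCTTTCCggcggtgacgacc
Rps27l (chr9:66946056-66946085, plus strand): cgcctccaCTCCTCTCCactcctccccgcc
Rpl22 and Rps3 are shown because their longest runs were 5 bases, although Rpl22 was called in no comparison and Rps3 was called lower at week 7.
Rpl22 (chr4:152324418-152324447, plus strand): cagcgctgCTTCTggaatgttccagctccc
Rps3 (chr7:99483669-99483698, minus strand): cgtcattgCTCCCgccctatatacctactt

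A run of at least 8 pyrimidines lay within those 75 bases in 48 of the 62 members (77.4%), against 30.4% of the 27025 genes of the RefSeq table. The pentamer CTTTC, which may lie inside such a run, was found on the gene's strand in 31 members (50%), against 10.4% of all genes. On the other strand it was found in 8 members (12.9%), against 9.11% of all genes. Starts were chosen by their longest run in members and in all genes. That choice raises the shares with a run and may favour the pentamer on the gene's strand. Among the 26 matched members called lower at week 7 against week 0, 23 held the run and 14 held the pentamer. Among the 36 that were not called, 25 held the run and 17 the pentamer. Most members carried the run, whether or not they were called. An annotated start need not be the start used in these livers, so a match or its absence describes only the printed letters.

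Ribosomal protein transcripts were lower by a small amount at week 7 than at week 0 in most of the family. Of the 82 genes 31 fell and 0 rose (edgeR, adjusted p under 0.05). At an unadjusted p under 0.05, 52 were lower and 0 higher, and DESeq2 and limma voom also called 0 higher. The called members were 37.8% of the family, against a background of 6.23% of all 15368 tested genes called lower and 7.58% called higher. The median log2 fold change of the 82 genes was -0.15, with a range of -0.65 to 0.13, and that of all tested genes was 0.00. In 67 members both week 7 libraries lay below both week 0 libraries, against a background of 27.8% of all genes, and in 1 member (Rpl36a) they lay above, against a background of 28.2%. The sign was negative in 79 of the 82 under TMM scaling. The tested genes were not matched to the members in level, here or in the comparisons below. Most members held many counts, and small changes reach a call more readily at high counts. The SD of the log2 fold changes was 0.121 over the members and 1.33 over all tested genes. The part of level in these shares was not tested.

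**Figure D1:**
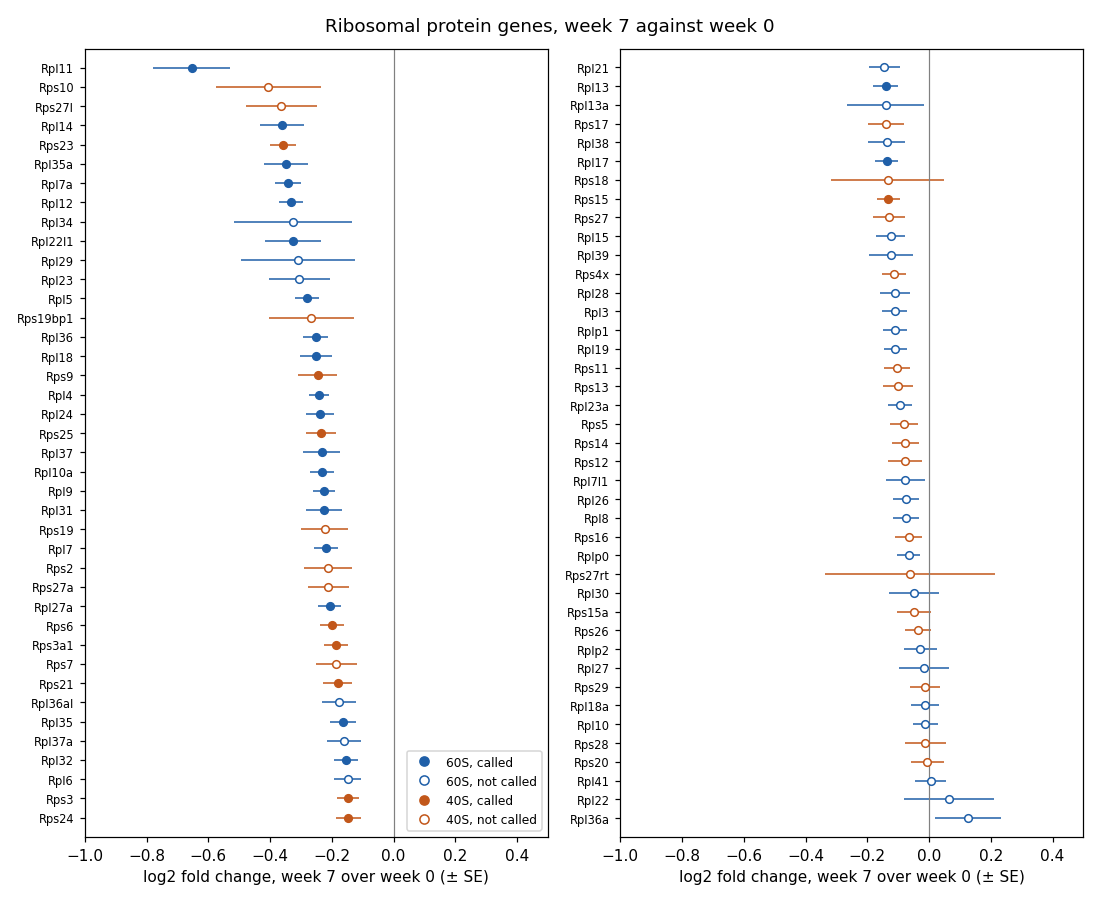
Log2 fold change of 81 of the 82 genes, week 7 over week 0, with its standard error (x axis), ordered by size from the top of the left panel. Blue marks 60S and orange 40S members, and filled points are the 30 called ones among them, from Rpl11 at -0.65 to Rps15 at -0.13.

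Scaled by TMM, transcripts of the family summed to 19642 and 19912 CPM (week 0), 19117 and 18774 CPM (week 2) and 17757 and 17333 CPM (week 7). Both libraries of week 7 lay below all 4 others. The mean was 17545 ± 300 CPM at week 7 and 19777 ± 191 CPM at week 0 (SD, n = 2 each). The difference was -11.3%, or -9.02% when libraries were scaled by their totals alone. The 60S members summed to 11018 ± 250 CPM at week 7, against 12449 ± 216 CPM at week 0. The 40S members summed to 6527 ± 49.8 CPM at week 7, against 7327 ± 25.4 CPM at week 0. The differences were -11.5% for 60S and -10.9% for 40S, and the ratio of 40S to 60S sums was 0.597 and 0.58 (week 0), 0.572 and 0.567 (week 2) and 0.586 and 0.599 (week 7). Weeks 0 and 7 overlapped in that ratio, and both week 2 libraries lay below them. These sums are descriptions with no test. In bulk RNA, fewer cells of a type and less RNA per cell cannot be told apart.

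**Figure D2:**
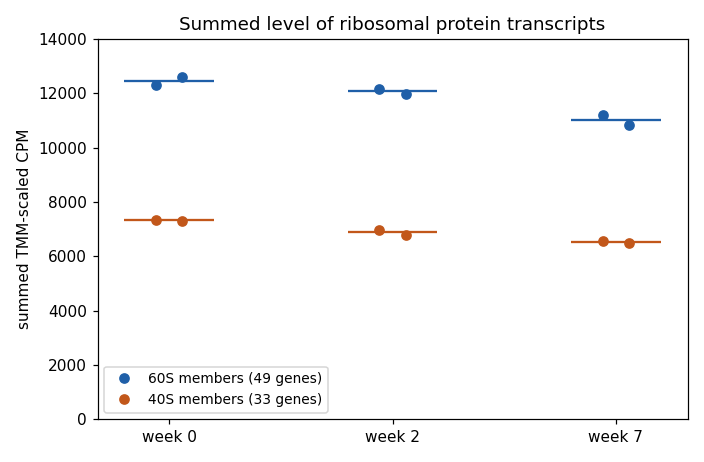
Summed TMM-scaled CPM (y axis) of the 49 60S members (blue) and the 33 40S members (orange) in each library, by week, with lines at the week means. For both subunits the week 7 libraries are the lowest, at 10841 and 11194 CPM for 60S and 6492 and 6562 CPM for 40S.

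Other cell types moved between the same libraries. All 7 of the 7 Kupffer cell (liver macrophage) markers were called lower at week 7 against week 0, with summed levels of 243.4 and 243.9 CPM at week 7 and 341 and 348 CPM at week 0. Stellate cell and fibroblast markers had 4 of 7 lower and 1 higher, with sums of 140.2 and 147 CPM at week 7 and 193 and 199 CPM at week 0. Dividing-cell markers had 5 of 6 higher, with sums of 27.3 and 27.4 CPM at week 7 and 13.6 and 13.7 CPM at week 0. Hepatocyte markers had 2 of 8 higher and 4 lower, with sums of 82400 and 82580 CPM at week 7 and 94940 and 95570 CPM at week 0. These sums are mostly Alb, which took 5.41% and 5.39% of the counts at week 7 and 6.36% in each week 0 library. Of the other lists, monocyte, B or plasma cell and endothelial markers had 1 lower call each, cholangiocyte markers had 1 higher, and T or NK cell, neutrophil and erythroid markers had 0 (Ly6g of the neutrophil list was at 0 counts in every library). Despite its lower call, the B or plasma cell list summed to 6.83 and 7.33 CPM at week 7 and 2.08 and 0.954 CPM at week 0. Its median log2 fold change was 3.26, at these low levels. The part of these cell types in the lower ribosomal protein transcripts was not tested.

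Among the 60S members, 21 of 49 fell and 0 rose at week 7 against week 0. The largest called decrease was in Rpl11 (ENSMUSG00000059291), which with Rpl5 and 5S rRNA forms the 5S particle, a unit that also binds the p53 inhibitor MDM2. Rpl11 stood at 379.8 and 399 CPM at week 0, 383 and 299 CPM at week 2, and 251 and 244 CPM at week 7. The 2 week 7 libraries were the lowest, while the week 2 libraries lay 1 within and 1 below the week 0 values. Its log2 fold change at week 7 against week 0 was -0.65 ± 0.12 (SE; edgeR adjusted p = 0.0369), the widest error of the called members. The call was lost without either library of week 0 or week 7 (adjusted p = 0.142 to 0.203), with no filter (0.0963) and with limma voom (0.0761), at log2 fold changes of -0.69 to -0.62. Rpl5 (ENSMUSG00000058558) stood at 352 and 351 CPM at week 0, 322 and 325 CPM at week 2, and 296 and 283 CPM at week 7, so that the 3 weeks did not overlap. It fell by 0.28 ± 0.04 on the log2 scale at week 7 against week 0 (adjusted p = 0.0018), and that call was kept in all 6 fits with a library left out and under each other scaling, filter and tool.

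Rpl12 (ENSMUSG00000038900) encodes a protein at the base of the ribosomal stalk, where translation factors bind. It stood at 296 and 294 CPM at week 0, 292 and 281 CPM at week 2, and 237 and 232 CPM at week 7. The week 7 libraries lay well below the other 4, with log2 fold changes of -0.33 ± 0.04 against week 0 (adjusted p = 0.00081) and -0.29 ± 0.04 against week 2 (adjusted p = 0.00105), and both calls held in every fit with a library left out. Rpl7a (ENSMUSG00000062647), a 60S protein, stood at 561 and 587 CPM at week 0, 517 and 522 CPM at week 2, and 467 and 437 CPM at week 7. It was the 1 member called lower in all 3 comparisons, with log2 fold changes of -0.34 (adjusted p = 0.000931) at week 7 and -0.14 (0.0475) at week 2, each against week 0, and -0.20 (0.0102) at week 7 against week 2. The first of these calls held in every fit with a library left out. The week 2 against week 0 call was lost without any 1 library of those weeks (log2 fold changes of -0.1754 to -0.1079). It was also lost with upper-quartile scaling, with total counts only and with a block for the replicate number. The week 7 against week 2 call was lost without week 2 replicate 1 or 2 or week 7 replicate 2 (log2 fold changes of -0.2064 to -0.1555).

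Rpl14 stood at 302 and 305 CPM at week 0, 271 and 269 CPM at week 2, and 256 and 216 CPM at week 7. Its log2 fold change at week 7 against week 0 was -0.36 ± 0.07 (adjusted p = 0.0144; 0.074 and 0.0808 without either week 0 library). Rpl35a, mutated in some patients with Diamond-Blackfan anaemia, stood at 89.1 and 81.8 CPM at week 0, 67.5 and 63.5 CPM at week 2, and 68.1 and 66.1 CPM at week 7. Weeks 2 and 7 overlapped, and both were below week 0. It fell by 0.35 ± 0.07 on the log2 scale at week 7 (adjusted p = 0.013; 0.0901 when replicate 1 of week 0 was left out and 0.0665 when replicate 2 of week 7 was) and by 0.38 ± 0.07 at week 2 (adjusted p = 0.00594), each against week 0. The 21 called 60S members also included Rpl4, which lines the tunnel through which the new protein leaves, at 621 ± 5.04 CPM at week 7 and 735 ± 2.86 CPM at week 0 (adjusted p = 0.00132). Rpl4 had the highest mean level of the family in CPM.

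In the 40S subunit, 10 of 33 members fell and 0 rose at week 7 against week 0. Rps23 (ENSMUSG00000049517), whose protein lies at the decoding centre, stood at 248 and 258 CPM at week 0, 233 and 229 CPM at week 2, and 199 and 195 CPM at week 7. The 3 weeks did not overlap. Its log2 fold change was -0.36 ± 0.04 at week 7 against week 0 (adjusted p = 0.000724), the smallest adjusted p of the family in that comparison, and -0.23 ± 0.04 at week 7 against week 2 (0.00493). The calls of Rps23 at week 7 against weeks 0 and 2 held in every fit with a library left out.

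Rps6, the substrate of the S6 kinases, stood at 393 and 410.0 CPM at week 0, 349 and 353 CPM at week 2, and 344 and 356 CPM at week 7. Weeks 2 and 7 overlapped below week 0. Its log2 fold change was -0.20 ± 0.04 at week 7 (adjusted p = 0.0109; 0.0851 when replicate 2 of week 0 was left out and 0.0634 when replicate 1 of week 7 was). At week 2 it was -0.19 ± 0.04 (adjusted p = 0.0089), a call lost with total counts only (0.137) and without week 0 replicate 2, week 2 replicate 1 or week 2 replicate 2 (0.0606 to 0.0746). Rps3, at the channel where mRNA enters, stood at 385 and 396 CPM at week 0, 398 and 396 CPM at week 2, and 355 and 351 CPM at week 7. It was called at week 7 against week 0 (log2 fold change -0.15, adjusted p = 0.0262), but not in a fit without any 1 of the 6 libraries (0.0587 to 0.155), with total counts only (0.106) or with only the 4 libraries compared (0.0694). Rps19, the gene most often mutated in human Diamond-Blackfan anaemia, averaged 155 ± 17.2 CPM at week 7 and 182 ± 9.76 CPM at week 0 and was not called (adjusted p = 0.0986).

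The week 7 against week 0 calls of 10 members held in every fit with 1 library left out and under each other scaling, filter and tool. Among them were Rpl4, Rpl5, Rpl7a, Rpl9, Rpl10a, Rpl12, Rpl27a, Rpl36 and Rps23, of which Rpl4, Rpl9, Rpl10a, Rpl27a and Rpl36 were chosen after their values were seen. The other 21 calls were lost in at least 1 such fit, and the whole count of 31 was 13 to 23 in those fits. The lowest count came without week 0 replicate 2 (13), followed by week 0 replicate 1 (15), week 7 replicate 2 (16) and week 7 replicate 1 (20). In a test against a fold change of 1.5, edgeR called 0 members in any comparison, and 0 also had an unadjusted p under 0.05. The ratio of means was nevertheless beyond that fold in Rpl11 at week 7 (0.635) and in Rps10 (0.586) and Rps27l (0.652) at week 2, each against week 0.

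**Figure D3:**
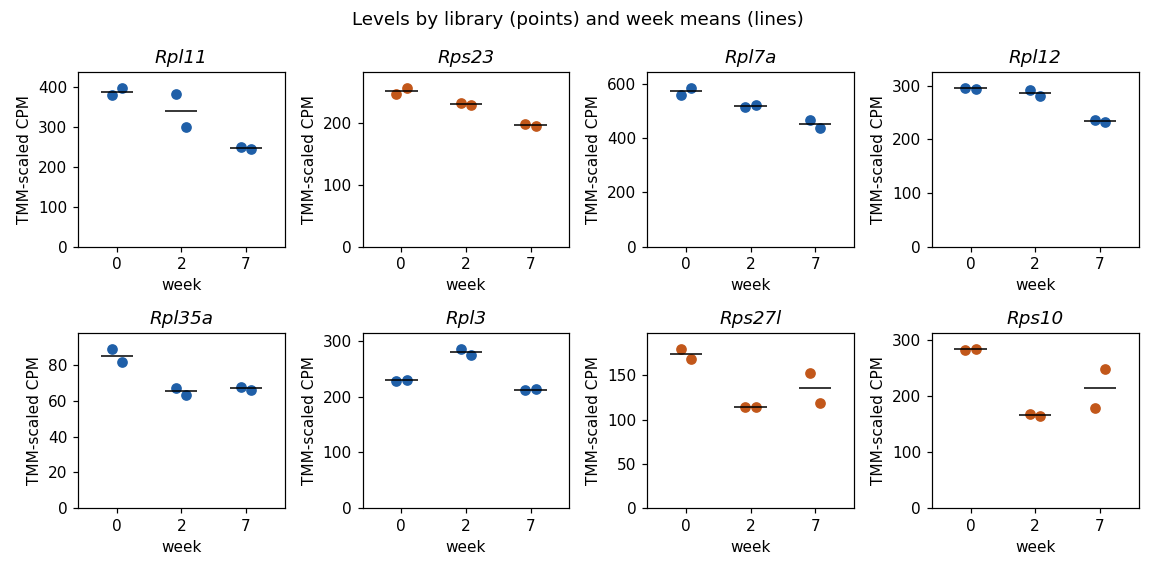
TMM-scaled CPM (y axis, from 0) of 8 members in each of the 6 libraries by week, with lines at the week means. Rpl11, Rps23, Rpl7a and Rpl12 have their lowest libraries at week 7, Rpl35a is lower at both later weeks than at week 0, Rpl3 is highest at week 2, and Rps27l and Rps10 are lowest at week 2.

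The 3 genes of the stalk and the 4 X-linked members had no call at week 7 against week 0 by edgeR, DESeq2 or limma voom, and 1 of each group was lower at an unadjusted p under 0.05. Of the stalk genes, Rplp0 averaged 481 ± 15.9 CPM at week 7 and 503 ± 8.95 CPM at week 0 (adjusted p = 0.305). Rplp1 averaged 311 ± 4.84 CPM at week 7 and 336 ± 7.31 CPM at week 0 (adjusted p = 0.107). Rplp2 averaged 171 ± 3.15 CPM at week 7 and 175 ± 6.68 CPM at week 0 (adjusted p = 0.801). Rplp1 was called lower at week 7 against week 2 (log2 fold change -0.14, adjusted p = 0.0418), and the call was lost without any 1 library (0.061 to 0.252) and with only the 4 libraries compared (0.061). Of the X-linked genes Rpl10, Rpl36a, Rpl39 and Rps4x, 0 of 4 were called in any comparison by edgeR or DESeq2. By limma voom, 1 was called lower at week 7 against week 2. Week 2 differs in sex from the other weeks, and the part of sex in these values was not tested. Rpl10, which joins the 60S subunit late in its maturation, stood at 232 and 229 CPM at week 0, 232 and 225.0 CPM at week 2, and 231 and 226 CPM at week 7, and the weeks overlapped. Rps4x averaged 299 ± 0.3 CPM at week 0, 281 ± 9.17 CPM at week 2 and 276 ± 4.37 CPM at week 7. Rpl39, whose protein lies in the exit tunnel, averaged 149 ± 5.03 CPM at week 0, 159.6 ± 16.9 CPM at week 2 and 137 ± 2.88 CPM at week 7.

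At week 2 against week 0, 14 of 82 members fell and 1 rose, against a background of 8.81% of tested genes called lower and 9.81% called higher. The called-lower share was 17.1%. The median log2 fold change was -0.05, against 0.01 over all tested genes, and with total counts only it turned to 0.04, with 6 members higher and 3 lower. That scaling put the median of all genes at 0.10, and relative to all genes the family's median was -0.07 under both scalings. A change of scaling shifts all genes nearly alike, so this difference stays the same by construction and does not test the scaling. In 38 members both week 2 libraries lay below both week 0 libraries (background 28.8%), and in 9 they lay above (background 31.4%). Of the 60S members 7 of 49 were lower and 1 higher, and of the 40S members 7 of 33 were lower. The count of lower calls was 3 without week 0 replicate 1, week 0 replicate 2 or week 2 replicate 2, and 5 without week 2 replicate 1. At week 2, 5 of 7 Kupffer cell markers, 5 of 7 stellate or fibroblast markers and 3 of 6 endothelial markers were called higher than at week 0, and 1 stellate or fibroblast marker lower. The sums of these lists were 462 and 471, 301 and 302, and 279 and 288 CPM at week 2, against 341 and 348, 193 and 199, and 225 and 241 CPM at week 0. Monocyte or macrophage markers had 3 of 7 higher, with sums of 227 and 231 CPM at week 2 and 137 and 141 CPM at week 0. Dividing-cell markers had 3 of 6 higher, with sums of 28.9 and 24.4 CPM at week 2 and 13.6 and 13.7 CPM at week 0. Hepatocyte markers had 5 of 8 lower and 2 higher, with sums of 113300 and 119600 CPM at week 2 and 94940 and 95570 CPM at week 0. Alb, the main part of these sums, took 9.65% and 10.1% of the counts at week 2 and 6.36% in each week 0 library. Cholangiocyte markers had 2 higher, erythroid markers 2 higher and 1 lower, and T or NK cell, B or plasma cell and neutrophil markers 0 calls. The B or plasma cell list summed to 4.87 and 5.42 CPM at week 2 and 2.08 and 0.954 CPM at week 0. The part of these cell types in the result was not tested.

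Rpl3 (ENSMUSG00000060036), close to the peptidyl transferase centre, was the 1 member that rose. It stood at 229 and 231 CPM at week 0, 286 and 275 CPM at week 2, and 213 and 214 CPM at week 7. The week 2 libraries were above all others and the week 7 libraries below all others. The log2 fold change was 0.29 ± 0.04 at week 2 against week 0 (adjusted p = 0.0013) and -0.40 ± 0.04 at week 7 against week 2 (adjusted p = 0.00018), and both calls held in every fit with a library left out. The value at week 7 against week 0 was -0.11 (adjusted p = 0.113). Its pseudogene Rpl3-ps1 stood at 87.7 to 90.5 CPM at weeks 0 and 2 and at 83.3 and 87.7 CPM at week 7, and was called in no comparison.

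Among the paralogues, Rps27l (ENSMUSG00000036781), a close relative of Rps27 and a known p53 target, had the largest called change of the family at week 2. It stood at 179.8 and 169 CPM at week 0, 114 and 114 CPM at week 2, and 152 and 119 CPM at week 7. Both week 2 libraries lay below all others, and the week 7 libraries lay apart. The log2 fold change was -0.62 ± 0.12 at week 2 against week 0 (adjusted p = 0.0151) and was lost without any 1 library of those weeks (0.0554 to 0.107). Between week 7 and week 0 it was -0.36 (adjusted p = 0.0999). Rps27 itself averaged 202 ± 4 CPM at week 2 and 225 ± 5.2 CPM at week 0 and was not called (adjusted p = 0.0621). The 150-base stretches of Rps27l were shared with no other gene, while 98.0% of those of Rps27 were shared.

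Rpl36al, the autosomal paralogue of the X-linked Rpl36a, averaged 100.2 ± 1.24 CPM at week 2 and 122.6 ± 0.369 CPM at week 0. The log2 fold change was -0.29 ± 0.05 (adjusted p = 0.00596), and the call held in every fit with a library left out. Rpl36a averaged 79.9 ± 13.7 CPM at week 2 and 69.6 ± 2.45 CPM at week 0 (adjusted p = 0.263). Rpl22l1, the paralogue that Rpl22 represses in mouse, stood at 34.7 and 36.9 CPM at week 0, 37.4 and 36.2 CPM at week 2, and 30.1 and 27.0 CPM at week 7. Only week 7 was apart. It fell by 0.33 ± 0.09 on the log2 scale against week 0 (adjusted p = 0.0475), a call lost without any 1 library (0.0627 to 0.205), with total counts only (0.0791) and with the 4 libraries alone (0.0853). Against week 2 it fell by 0.37 ± 0.09 (adjusted p = 0.0225; 0.0764 to 0.122 without week 2 replicate 1 or 2 or week 7 replicate 2). Rpl22 stood at 103 and 106 CPM at week 0, 110.1 and 104 CPM at week 2, and 126 and 92.8 CPM at week 7, where its libraries lay on both sides of the rest. Rpl7l1 averaged 81.6 ± 4.41 CPM at week 7 and 86 ± 0.667 CPM at week 0 (adjusted p = 0.508), while Rpl7 averaged 278 ± 4.64 CPM at week 7 and 323 ± 7.55 CPM at week 0 (adjusted p = 0.00771; 0.0599 without week 0 replicate 2).

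Other members called lower at week 2 against week 0 and among the 8 largest were Rps25, Rpl6, Rpl10a and Rps13. Rps25, needed for initiation on some viral RNAs, averaged 188 ± 3.48 CPM at week 2 and 223 ± 0.297 CPM at week 0 (adjusted p = 0.00914; 0.0521 to 0.0759 without either week 0 library or week 2 replicate 2, and 0.0602 with total counts only). Rpl6 averaged 271 ± 2.65 CPM at week 2 and 315 ± 3.39 CPM at week 0 (adjusted p = 0.00832; 0.0503 to 0.063 without week 0 replicate 1 or either week 2 library, and 0.0984 with total counts only). Rpl10a averaged 224 ± 2.29 CPM at week 2 and 254 ± 2.21 CPM at week 0 (adjusted p = 0.0119; 0.0558 to 0.0873 without any 1 library of those weeks, and 0.191 with total counts only). Rps13 averaged 132 ± 1.55 CPM at week 2 and 149.5 ± 3.29 CPM at week 0 (adjusted p = 0.0358; 0.0876 to 0.174 without any 1 library of those weeks, 0.0747 with upper-quartile scaling and 0.286 with total counts only). The lowest fold change of the family at week 2 was that of Rps10, which is modified when ribosomes collide, and it was not called. Rps10 stood at 281 and 283 CPM at week 0, 167 and 164 CPM at week 2, and 178 and 248 CPM at week 7. Its week 7 libraries were the most separated pair of the family at that week, with a log2 difference of -0.473 (replicate 1 minus replicate 2), and the log2 fold change of -0.77 at week 2 had an adjusted p of 0.0549.

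At week 7 against week 2, 19 of 82 members fell and 0 rose, or 23.2%, against a background of 9.73% of tested genes called lower and 10.1% called higher. At an unadjusted p under 0.05, 36 were lower and 1 higher, and DESeq2 called 1 higher and limma voom 0. The median log2 fold change was -0.11, and that of all tested genes was 0.00. In 51 members both week 7 libraries lay below both week 2 libraries (background 30.8%), and in 7 they lay above (background 30.3%). The 60S members had 14 of 49 lower and the 40S members 5 of 33. The largest also included, after Rpl3 and Rpl22l1, those of Rpl12, Rps9, Rpl7, Rps23 and Rpl21. Rps9 averaged 256 ± 8.73 CPM at week 7 and 311 ± 25 CPM at week 2 (adjusted p = 0.0174; 0.0641 to 0.126 without week 2 replicate 1 or either week 7 library). Rpl7 averaged 278 ± 4.64 CPM at week 7 and 329 ± 7.44 CPM at week 2 (adjusted p = 0.00276), a call that held in every fit with a library left out. Rpl21 averaged 213 ± 3.96 CPM at week 7 and 249.7 ± 6.33 CPM at week 2 (adjusted p = 0.0121; 0.0967 when replicate 1 of week 2 was left out and 0.0673 when replicate 1 of week 7 was). Rpl13a, which hosts small nucleolar RNAs in its introns, averaged 479 ± 77 CPM at week 7 and 558 ± 33.1 CPM at week 2 (adjusted p = 0.325). The count of 19 was 36 with upper-quartile scaling and 33 with total counts only, and it was 6 without week 2 replicate 1, 12 without week 2 replicate 2 and 11 without week 7 replicate 2. All 7 Kupffer cell markers, 6 of 7 stellate or fibroblast, 4 of 6 endothelial and 3 of 7 monocyte or macrophage markers were called lower at week 7 than at week 2. The endothelial sums were 209.1 and 209.9 CPM at week 7 and 279 and 288 CPM at week 2, the monocyte or macrophage sums 122 and 126 CPM at week 7 and 227 and 231 CPM at week 2, and the others are given above. Hepatocyte markers had 4 higher and 1 lower, erythroid markers 1 higher and 2 lower, B or plasma cell and cholangiocyte markers 1 lower each, and dividing-cell, T or NK cell and neutrophil markers 0 calls. Their part in the result was not tested.

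Over the 3 comparisons 41 members were called at least once and 41 never. A group of 15 was lower at week 7 than at both earlier weeks (among them Rpl4, Rpl5, Rpl7, Rpl7a, Rpl9, Rpl12, Rpl17, Rpl22l1, Rpl32, Rpl35, Rps3, Rps9, Rps15 and Rps23). Another 8, of which Rpl7a belongs to both, were lower than week 0 at both later weeks (Rpl7a, Rpl10a, Rpl24, Rpl35a, Rpl36, Rps3a1, Rps6 and Rps25). The 15 are 18.3% of the members, against a background of 2.80% of all tested genes, and the 8 are 9.76%, against a background of 2.50%. With a library left out, 3 of the 15 kept both calls in every fit, Rpl12 and Rps23 among them, and 0 of the 8 did. These comparisons share libraries, so the counts are not independent, and membership follows from the calls.

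**Figure D4:**
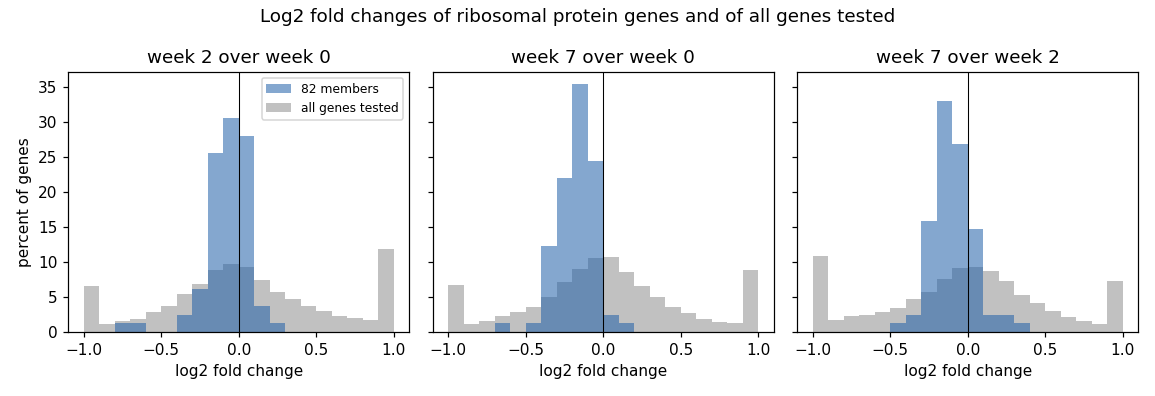
Percent of genes (y axis) in bins of log2 fold change (x axis) for the 82 members (blue) and all 15368 tested genes (grey) in the 3 comparisons, where the outermost bins also hold all values beyond them. At week 7 over week 0 the members lie within -0.65 to 0.13, a narrow band mostly left of 0, while the tested genes spread more widely. The tested genes were not matched to the members in level.

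The members differed in level by a wide factor. Divided by the length of the mRNA, the mean over all 6 libraries was highest in Rpl41, which encodes the smallest ribosomal protein, at 739 CPM per kilobase. It was lowest in Rps27rt, a retrogene of Rps27, at 8.70 CPM per kilobase, followed by Rpl29 at 10.8. Other genes shared 87.1% of the 150-base stretches of Rps27rt and 35.1% of those of Rpl29. These low values may therefore depend on how reads were placed. Replicates were close in most members. The SD of the log2 difference between the 2 libraries was 0.0726 over the members at week 0, 0.136 at week 2 and 0.136 at week 7. Members with libraries more than 0.2 apart numbered 1 at week 0, 9 at week 2 and 10 at week 7. The most separated were Rpl27 at week 0 (-0.266), Rps27rt (0.595), Rps18 (0.565) and Rpl34 (0.502) at week 2, and Rps10 (-0.473), Rpl22 (0.447) and Rpl34 (0.403) at week 7, each as replicate 1 minus replicate 2.

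Ribosomal protein genes have left many near-identical copies in the genome, and single members are uncertain where the counting could split their reads. Exact 150-base stretches were shared with another gene in 70 of the 82 members. Of all 150-base stretches of a member's mRNA, the shared part had a median of 28.8% over the 82 members and was over 50% in 23. Of the 12 members with no shared stretch, 4 fell at week 7 against week 0, with a median log2 fold change of -0.13, and of the other 70, 27 fell, with a median of -0.15. Between week 2 and week 0, 2 of the 12 fell, with a median of -0.08, and 12 of the 70 fell and 1 rose, with a median of -0.05. At week 7 against week 2 the medians lay further apart: 3 of the 12 fell, with a median of -0.0035, and 16 of the 70 fell, with a median of -0.11. Some copies took more counts than the member. Rps2-ps10 held 70.2% to 74.0% of the counts of Rps2 and itself, Rpl34-ps1 held 82.2% to 88.1% with Rpl34, and Gm10260 held 80.1% to 85.8% with Rps18. Rps2 averaged 139 ± 3.81 CPM at week 7 and 161 ± 5.27 CPM at week 0 (adjusted p = 0.117), and Rps2-ps10 stood at 369 and 348 CPM at week 7 and 415 and 448 CPM at week 0, and fell (log2 fold change -0.27, adjusted p = 0.00685). Gm10260 fell by 0.17 in the same comparison (adjusted p = 0.026; 0.0517 to 0.144 without any 1 library). Gm6472, a copy of Rps7, held 15.3% to 17.8% of the pair's counts in 5 libraries but 2.06% in week 7 replicate 1, with 302 counts there and 2494 in week 7 replicate 2. With the counts of all -ps genes added to their members, the summed level was 18151 CPM at week 7 and 20496 CPM at week 0 (difference -11.4%).

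**Figure D5:**
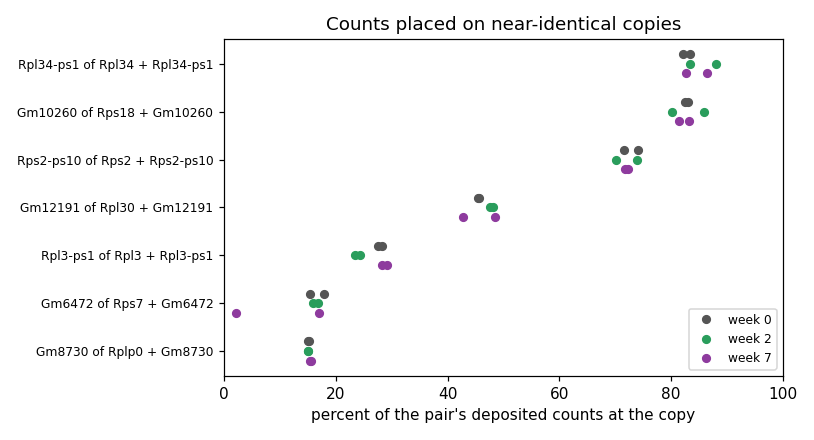
Share of the counts of a member and its copy that was placed on the copy (x axis, percent), with 1 point per library, coloured by week. Shown are the 7 pairs in which a copy with a Gm or -ps symbol held at least 10% of the member's week 0 counts. Genes with other symbols that share stretches with a member, such as BC004004 with Rpl21, were left out. The shares lie between 70.2% and 88.1% for the copies of Rps2, Rps18 and Rpl34. That of Rpl3-ps1 is lower at week 2 (23.4% and 24.3%) than at weeks 0 and 7 (27.5% to 29.1%). That of Gm6472 is 2.06% in week 7 replicate 1 and 15.3% to 17.8% in the other libraries.

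Related genes were counted from lists chosen for their work with the ribosome, and their called shares stand beside those of all tested genes, which were 6.23% lower and 7.58% higher at week 7 against week 0, 8.81% lower and 9.81% higher at week 2 against week 0, and 9.73% lower and 10.1% higher at week 7 against week 2. Of the ribosomal protein genes that the symbol pattern misses, Fau, which encodes a 40S protein fused to a ubiquitin-like protein, fell to 283 ± 5.79 CPM at week 7, against 330.0 ± 1.02 CPM at week 0 (log2 fold change -0.22, adjusted p = 0.00606). Rpsa fell to 682 ± 14.5 CPM at week 2, against 766 ± 26.9 CPM at week 0 (adjusted p = 0.0209; 0.0778 to 0.146 without week 0 replicate 2 or either week 2 library). Fau and Rack1 fell at week 7 against week 2 (adjusted p = 0.013 and 0.0154), and each call was lost without some libraries (0.063 and 0.11 for Fau without week 7 replicate 1 and week 2 replicate 2, 0.0616 to 0.112 for Rack1 without either week 2 library or week 7 replicate 2). Rps27a, a member that encodes ubiquitin fused to a 40S protein, averaged 183 ± 4.63 CPM at week 7 and 211 ± 0.635 CPM at week 0 (adjusted p = 0.0698).

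A list of other genes whose mRNAs carry a TOP motif, mostly translation factors, had 5 of 20 (25%) lower and 0 higher at week 7 against week 0. Its median log2 fold change was -0.12. The list also holds genes that are no translation factors, such as Tpt1, Npm1 and Hnrnpa1, so its shares do not describe translation factors alone. The count of lower calls was 2 to 3 with a library left out. Eef1a1, which brings aminoacyl-tRNA to the ribosome, fell to 4016 ± 6.8 CPM at week 7, against 4903 ± 13.8 CPM at week 0 (log2 fold change -0.29, adjusted p = 5.43e-05). Eef1b2, its exchange factor, fell to 137 ± 0.978 CPM at week 7, against 181 ± 2.44 CPM at week 0 (adjusted p = 0.0011). Both calls held in every fit with a library left out. At week 2 against week 0 the list had 4 (20%) lower, with Eef1a1 and Eef1g among them (adjusted p = 0.000234 and 0.0018), and 1 higher, Tpt1 (adjusted p = 0.0383; 0.113 to 0.241 without any 1 library of those weeks). The comparison of week 7 with week 2 gave 3 lower and 2 higher, and 5 lower and 0 higher with either upper-quartile scaling or total counts only.

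Initiation and elongation factors outside that list had 5 of 25 (20%) lower and 2 (8%) higher at week 7 against week 0, and 2 to 5 lower and 0 to 1 higher with a library left out. Eif3a fell to 114 ± 1.45 CPM at week 7, against 145 ± 1.26 CPM at week 0 (adjusted p = 0.00485). At week 2 against week 0 they had 6 (24%) lower and 0 higher, and at week 7 against week 2 they had 6 (24%) higher and 0 lower, which became 4 higher and 2 lower with upper-quartile scaling and 3 higher and 1 lower with total counts only. Eif4g1, the scaffold of the cap-binding complex, rose to 472 ± 11.2 CPM at week 7, against 339 ± 4.38 CPM at week 2 (log2 fold change 0.48, adjusted p = 2.64e-05). The week 2 level of Eif4g1 was below that of week 0, 428 ± 1.15 CPM (adjusted p = 0.000229).

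Genes of ribosome assembly and rRNA processing had 5 of 50 (10%) lower and 0 higher at week 7, and 12 (24%) lower and 0 higher at week 2, each against week 0. The share at week 7 was near the background, and with a library left out the lower calls numbered 1 to 6 at week 7 and 1 to 9 at week 2. With total counts only, the week 2 counts were 3 lower and 1 higher. At week 7 against week 2 they had 4 (8%) higher and 1 (2%) lower, both below the background, and 2 of each with either of those 2 scalings. Gnl3, the nucleolar GTPase nucleostemin, averaged 25.2 ± 0.0345 CPM at week 0, 16.2 ± 0.53 CPM at week 2 and 17.02 ± 0.156 CPM at week 7. It was lower than week 0 at week 2 (adjusted p = 0.00285) and at week 7 (0.00793), and both calls held in every fit with a library left out. Of 15 genes of RNA polymerase I transcription, which makes rRNA, 1 rose (Ubtf) and 1 fell (Taf1d) at week 7 against week 0 (adjusted p = 0.0285 and 0.0275), both lost without any 1 library of those weeks (0.0799 to 0.134 and 0.0508 to 0.144). At week 2 against week 0, and at week 7 against week 2, 0 of the 15 were called by edgeR, with 4 lower and 1 higher and with 2 lower at an unadjusted p under 0.05. DESeq2 and limma voom each called 2 lower at week 2 against week 0 and 0 at week 7 against week 2. Mitochondrial ribosomal protein genes, a separate family of 78, had 4 (5.13%) lower and 2 (2.56%) higher at week 7 against week 0. At week 2 against week 0 they had 4 (5.13%) lower and 1 (1.28%) higher, and at week 7 against week 2, 3 (3.85%) of each. All were below the background. Their median log2 fold change at week 7 against week 0 was -0.12, against -0.15 for the 82 members and 0.00 for all tested genes. That of the assembly list was -0.14 and that of the RNA polymerase I list -0.21. It was -0.07 for the other initiation and elongation factors and 0.16 for the regulators below. A lower median was therefore not particular to the cytosolic family.

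Among 19 regulators of ribosomal protein synthesis, Myc, a transcription factor that drives ribosome production, rose to 12.8 ± 0.801 CPM at week 7, against 2.75 ± 0.193 CPM at week 0 (log2 fold change 2.21, adjusted p = 0.000106). Myc averaged 3.90 ± 0.259 CPM at week 2, and it was higher at week 7 than at week 2 as well (adjusted p = 0.000208). Rps6kb1, which encodes an S6 kinase, fell to 27.2 ± 1.77 CPM at week 7, against 37.2 ± 2.82 CPM at week 0 (adjusted p = 0.0157; 0.092 and 0.1 without replicate 2 of week 7 and of week 0). The list had 2 higher and 2 lower at week 7 and 0 higher and 2 lower at week 2, each against week 0 (2 higher and 1 lower at week 2 with total counts only), and 4 (21.1%) higher and 0 lower at week 7 against week 2. Of 12 genes listed for ribosomal stress and p53 feedback, 3 (25%) rose and 1 (8.33%) fell at week 7 against week 0. The list includes Znrf3, which is known for Wnt feedback and not as a p53 target. Its called shares therefore do not describe p53 targets alone. Each of the 3 rises was lost in some fits with a library left out, Cdkn1a in 2 (adjusted p = 0.0552 to 0.0637), Znrf3 in 4 (0.0528 to 0.144) and Phlda3 in 4 (0.0573 to 0.227), while the fall of Bbc3 was kept in all 6. Cdkn1a, the p53 target that halts the cell cycle, rose to 8.75 ± 1.83 CPM at week 2, against 2.07 ± 0.324 CPM at week 0 (log2 fold change 2.08, adjusted p = 0.000352), a call that held in all 6 of those fits. Bbc3, another p53 target, fell to 3.06 ± 0.0168 CPM at week 7, against 6.73 ± 0.572 CPM at week 0 (adjusted p = 0.00731). That list had, at week 2 against week 0, 2 (16.7%) higher and 1 (8.33%) lower, and at week 7 against week 2 it had 1 (8.33%) higher and 3 (25%) lower, with 1 to 3 higher and 0 to 2 lower, and 0 to 2 higher and 1 to 3 lower, when a library was left out.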

How the data were processed

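Poly-A RNA of 6 mouse liver libraries, 2 per week, was made into TruSeq V2 libraries and sequenced as paired ends, per the labels' protocols. The deposited table holds estimated counts for each Ensembl gene without any scaling, per the file header and its values, and rounding changed 0 values. Bowtie 0.12.2 and mm8 appear in the submitters' processing notes with no role. For the counting program and the annotation, nothing is given in the sources used here. Identifiers matched GENCODE M21 symbols for 54409 of 54446 genes, and the rest held at most 0.00079% of a library's counts. Groups came from the sample titles.

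Genes were kept with filterByExpr (15368, all 82 members among them), scaled with TMM and fitted in edgeR 4.0.16 (R 4.3.3) with a robust quasi-likelihood model of 1 coefficient per week. The model used all 6 libraries and had 3 residual degrees of freedom, with a common biological coefficient of variation of 0.209. Tests were 2-sided, with Benjamini-Hochberg adjustment over all tested genes, and genes with an adjusted p under 0.05 were called. Levels are given in TMM-scaled CPM, as mean ± SD over 2 libraries. Alternatives were other scalings and filters, division of counts by 4, addition of pseudogene counts, DESeq2 1.42.0, limma 3.58.1 voom, fits to the 4 compared libraries, a block for the replicate number, leaving out each library, an adjusted p under 0.01 and a fold change of 1.5. The fits were tested on simulated data. Lengths are median mRNA lengths from GENCODE M21, and start windows come from RefSeq on GRCm38.p6.

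Members, lists and panel were chosen with earlier results of these data known. Named genes are the 8 called members with the largest change in each direction of each comparison, a panel of members named whatever their result, the members with the highest and lowest mean level and up to 2 called genes in each direction per list. Some results that this rule names are not reported here. The kit does not mark strand, so reads of overlapping antisense genes cannot be told apart. No molecular identifiers were used, so reads are not independent molecules.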

Additional observations from a re-analysis of the deposited data

How the results depend on the processing

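At week 7 against week 0, the 31 lower calls became 19 with total counts only, 12 at an adjusted p under 0.01 and 0 against a fold change of 1.5. With 1 library left out they ranged from 13 to 23, and higher calls from 0 to 1. The family's median of -0.15 became -0.1709 with upper-quartile scaling and -0.1101 with total counts only, and ranged from -0.1658 to -0.1408 with a library left out. At week 2 against week 0, the 14 lower calls and 1 higher call became 7 lower with upper-quartile scaling, 3 lower and 6 higher with total counts only, 5 lower at an adjusted p under 0.01, and 0 lower and 0 higher against a fold change of 1.5. With a library left out, 3 to 18 were lower and 1 to 2 higher. The median was -0.05 and turned to 0.0368 with total counts only, where the median of all genes was 0.10, and ranged from -0.0751 to -0.0360 with a library left out. At week 7 against week 2, the 19 lower calls became 36 with upper-quartile scaling, 33 with total counts only, 6 at an adjusted p under 0.01 and 0 against a fold change of 1.5, and DESeq2 called 1 member higher. With a library left out, 6 to 15 were lower and 0 to 1 higher. The median of -0.11 became -0.1629 with upper-quartile scaling and -0.1624 with total counts only, and ranged from -0.1150 to -0.0780 with a library left out. Relative to the median of all genes, the family's median lay between -0.1488 and -0.1475 at week 7 against week 0. It lay at -0.07 at week 2 against week 0 and between -0.1035 and -0.1029 at week 7 against week 2. These values cover all 4 other scalings and TMM. A change of scaling shifts all genes nearly alike, so these differences stay the same by construction and do not test the scaling. With upper-quartile scaling the summed level was 17221 CPM at week 7 and 19328 CPM at week 2, with total counts only 19595 CPM at week 2 and 19204 CPM at week 0, and with pseudogene counts added 20496, 19617 and 18151 CPM at weeks 0, 2 and 7. The cause of these shifts was not tested.

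Over all genes, 52.7% of the calls at week 2 against week 0 were higher under TMM and 68.7% with total counts only (2007 higher and 913 lower). At week 7 against week 2 it was 50.8% under TMM and 41.2% with either of upper-quartile scaling and total counts only. The sample titles do not say whether replicate numbers pair the libraries. Over all tested genes, the differences between replicates 1 and 2 correlated at -0.0019, -0.0146 and -0.013 between weeks. These correlations cannot exclude a pairing, because they are taken over all tested genes, those with low counts included. Under a replicate block the calls of Rpl22l1 and Rps3 at week 7 against week 0, Rps13 at week 2 against week 0 and Rplp1 at week 7 against week 2 were lost among the named ones. A replicate block gave 24 lower calls at week 7 against week 0, 8 lower and 1 higher at week 2 against week 0, and 15 lower at week 7 against week 2. Of 32 calls of named members, 32 were kept with DESeq2, median-of-ratios scaling, pseudogene counts added and counts divided by 4, 25 with total counts only, and 19 to 25 with a library left out. With 2 libraries per week and 3 residual degrees of freedom, the precision of single members is limited by the number of libraries.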
